A study of Arabidopsis thaliana with 3 samples.

Results

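The 894 transcription start windows described here lie inside genes and leave, downstream of them, a coding sequence of 450 bases or less that still holds an annotated interaction domain. They were taken from a table of second start windows, in which each entry pairs the leading (first) start window of a transcript with a further (second) window and lists the length of coding sequence left by the second window and the Pfam domains in that sequence. An entry was kept when at least 1 of its domains carried the type "PPID", read here as protein-protein interaction domain because neither the labels nor the table spells it out, and when the length left was at most 450 bases and below that of the full coding sequence. Entries of a locus with the same second-window reads were counted as 1 window, so that 1153 entries gave 894 windows of 797 genes, out of 11008 distinct second windows of 6814 genes in 14437 entries. Windows were chosen by annotation and not by reads. They are called member windows below.

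The reads came from PEAT, a paired-end method that sequences the capped 5′ ends of transcripts. The RNA was total RNA of wild-type Arabidopsis thaliana seedlings, accession Col-0, taken whole at an age of 10 days. White light, 45 min of far-red enriched light and 90 min of it were each represented by 1 library, so no value below has a replicate. Each test compares the reads of 2 libraries and not the conditions. Counting 1 transcript per gene, the table totals were 3440656 (white light), 4373900 (45 min) and 4125024 reads (90 min). Where 3 read numbers follow each other below, they stand in that order. The green-tissue genes RBCS3B and RCA and the root gene PYK10 held reads in all 3 libraries. The other preset tissue markers had no entry in the table of second start windows.

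Microproteins are small proteins that consist of an interaction domain and little else. They pair with larger proteins through that domain and change what those proteins do, and in plants the LITTLE ZIPPER proteins, which pair with class III HD-ZIP transcription factors, are a known case. Some have a gene of their own. Others come from a larger gene through an alternative start of transcription, alternative splicing or early termination, and a start window inside a gene that spares a domain near the C-terminal end would leave such a product.

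ATHB2 is the gene of the study, a class II homeodomain-leucine zipper (HD-ZIP) factor known for its rapid induction when the light turns rich in far-red. It had 2 member windows. The window with 378 bases left spared 44.2% of the coding sequence, with the zipper complete (overlap 100) and 80 for the homeobox KN domain. Its start reads numbered 120, 1785 and 584, or 34.9, 408 and 142 RPM (reads per 1000000 reads of the table total). The level was thus 11.7-fold that of white light at 45 min (95% exact interval 9.72 to 14.2, counting error only) and 4.06-fold at 90 min (3.33 to 4.98). The first window of ATHB2 held 152, 3604 and 1811 reads, an 18.7-fold and a 9.94-fold level.

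The first window gained more, and the share of the 378-base window in the reads of the first and second window together fell. In white light the share was 44.1%, with a 95% Wilson interval of 38.3 to 50.1. The 45 min library gave 33.1% (31.9 to 34.4) and the 90 min library 24.4% (22.7 to 26.1), so the 3 intervals do not overlap. Against white light the 45 min share fell by 11.0 percentage points, which passed the test (Fisher's exact test, adjusted p = 0.000489). The 90 min share fell by 19.7 points and passed too (Fisher's exact test, adjusted p = 7.1e-11). Reads were not collapsed by molecular identifiers, so all intervals cover counting error only.

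The ATHB2 window with 435 bases left spared 50.9% of the coding sequence, again the complete zipper and, in addition, 77 for the homeobox domain and all of the homeobox KN domain. It held 25, 865 and 294 reads, a level 27.2-fold that of white light at 45 min (18.3 to 42.3) and 9.81-fold at 90 min (6.51 to 15.4). Its share was 14.1%, 19.4% and 14.0%. It differed from white light by 5.23 and -0.158 points, and neither difference passed (Fisher's exact test, adjusted p = 0.122 and 0.943). Both windows left a whole number of codons.

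**Figure D1:**
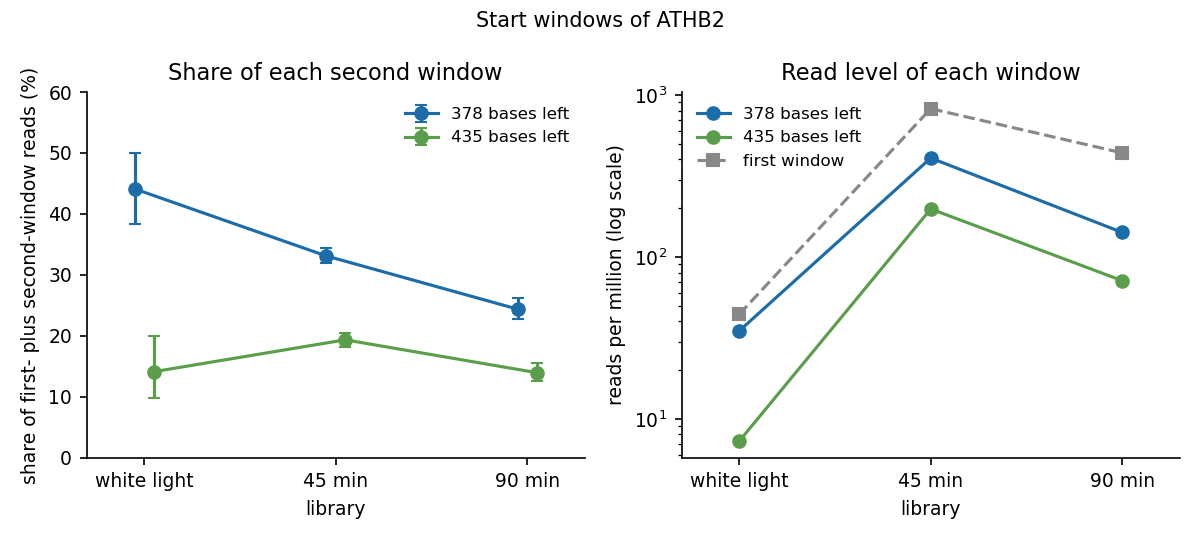
Left, share of each ATHB2 second window in first- plus second-window reads (%, points, with 95% Wilson bars for counting error) in the 3 libraries. Right, level in RPM on a log scale for both second windows and the first window. Levels of all 3 windows were highest at 45 min, and the share of the 378-base window was lowest at 90 min, at 24.4%.

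The leucine zipper of HD-ZIP factors (homeobox associated leucine zipper) is their dimerisation domain, yet the table gives it the type None and not PPID. ATHB2 therefore qualified through its homeodomain entries. HAT14, another class II HD-ZIP factor, had 1 member window, with 442 bases left, the complete zipper and a homeobox domain at 98. It was listed at 0 reads in white light and at 45 min and held 23 at 90 min, while its first window held 0, 43 and 19 reads. ATHB13, a class I HD-ZIP factor, was a member with 418 bases left only through a match to the GrpE model. It held 33, 35 and 0 reads, and its zipper stood at 64.

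AT-HSFB2B, a heat-shock factor, qualified through a bZIP match in 448 bases and held 29, 6 and 0 reads, against 1, 55 and 137 in its first window. At 45 min its share fell by 86.8 points, and the 90 min share was lower than in white light by 96.7. Its locus overlaps 2 other annotated genes. Windows of HAT1 (271 bases left), HAT14 (289) and HB-3 (439) kept all or nearly all of the zipper but no PPID entry, and were not members. Of the 10 class II HD-ZIP genes 4 were in the table and 2 had member windows. Of a list of 13 shade-responsive genes 6 were in the table and ATHB2 alone had a member window, and of 15 known single-domain regulators only HFR1 was in the table, with no member window.

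Member windows left 98 to 450 bases, with a median of 343 bases (quartiles 282 and 398), or 114 codons. This was 3.79% to 99.7% of the full coding sequence, with a median of 40.2%. For 573 windows it was under 50%, for 191 under 25% and for 12 at least 90%. Full coding sequences of member transcripts had a median of 831 bases, against 1365 bases for all windows, and the limit on the length left bears on this difference. At the cut itself, 50 windows with 441 to 450 bases left had a median of 91 reads over the 3 libraries, and 31 windows with a PPID domain and 451 to 460 bases left had 98. Just inside, at 450 bases, were windows of AT5G57655, GLX1, AT1G01830, CAD1 and AT5G19630, and just outside, at 451 or 452 bases, those of AT2G34970, AT1G76450, UGT73B3, AT3G47160 and AT4G23620.

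**Figure D2:**
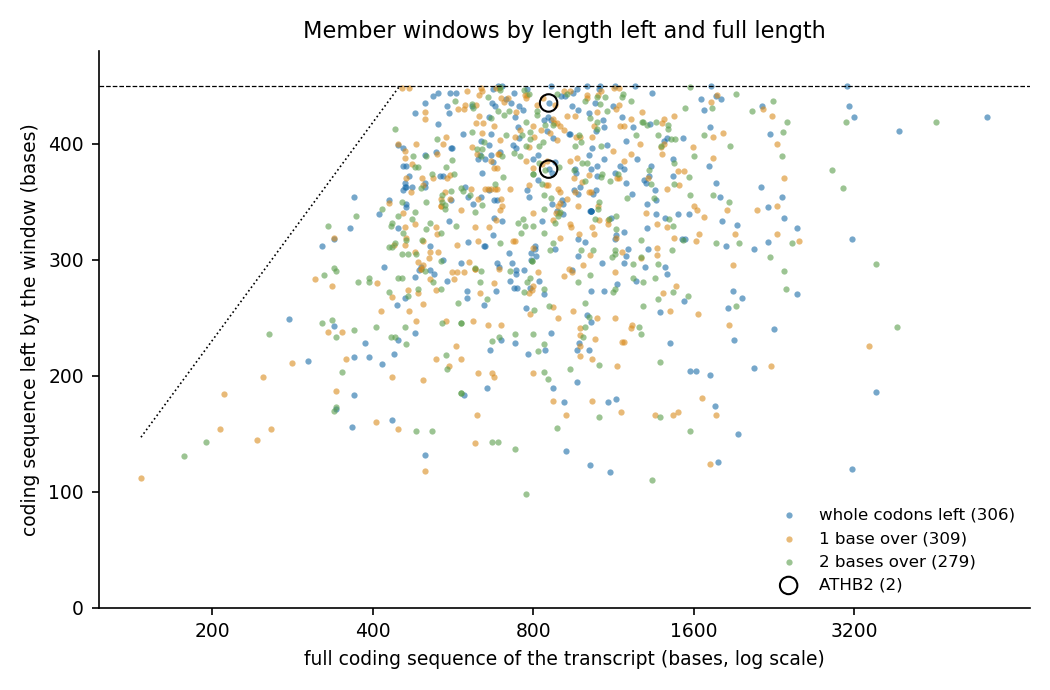
Coding sequence left by each of the 894 member windows (bases) against the full coding sequence of its transcript (bases, log scale), coloured by the bases left over after whole codons. The dashed line is the 450-base limit, the dotted line marks equal lengths, and circles mark the 2 ATHB2 windows, which leave 44.2% and 50.9%.

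The remaining length was a whole number of codons in 306 windows (34.2%), 1 base over in 309 (34.6%) and 2 bases over in 279 (31.2%). Over all windows the same shares were 35.0%, 32.9% and 32.1%. The length is counted from the window and not from a start codon, so the phase does not say which protein would be read. Among windows with at most 450 bases left, 21.2% of 4226 had a PPID domain, against 54.4% of the 6775 longer ones. The share grew with length from 2.92% of the windows with up to 150 bases to 31.1% of those with over 300 and up to 450, and to 71.4% above 1500 bases. Short windows mostly left no Pfam domain at all. Of the 1253 that left any, 71.3% had a PPID entry, close to the 72.8% over all 6296 windows with a domain.

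A member window left 1 domain entry in 538 cases and several in 356, up to 25, and 185 also kept a domain that is not PPID. The overlap value given with each domain ran from 60 to 100. Its meaning is not stated, but between windows of the same gene it never fell as more sequence was left, so it behaves as the percent of the domain that remains. At least 1 PPID domain stood at 100 in 497 member windows, all of them did in 401, and none did in 397.

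The windows that left the smallest share of their gene showed a domain at the very C-terminal end of a large protein. AT4G39050, annotated as a kinesin, kept a RING finger at overlap 76, so not complete, in the last 120 of 3168 bases. It held 0, 139 and 120 reads, at least 36.4-fold and 33.4-fold higher against a floor of 3 reads per library, while its first window held 180, 199 and 228. AT1G61690 kept an Snf7 match in 186 of 3516 bases, with 0, 72 and 31 reads. Both shares rose at both times.

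The shares of the next 3 fell at both times. RKP, a RING ubiquitin ligase, kept its RING finger in 242 of 3852 bases. It held 74, 31 and 31 reads, and its fall stood beside a first window of 3, 138 and 158 reads. Its locus overlaps 2 other annotated genes. MET18 kept HEAT repeats at 89 in 226 of 3405 bases (22, 36 and 32 reads). AT5G51280 kept a zinc knuckle at 93 in 126 of 1776 bases (125, 67 and 52 reads). The fall of MET18, by 54.6 and 43.6 points, stood beside a first window of 4, 84 and 46 reads. With all other reads of the transcript in place of the first window it became a change of 1.06 and -1.25 points.

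At the other end stood windows that removed almost nothing. AT5G55140, a ribosomal protein L30p/L7e match, lost 1 base of 330 (72, 64 and 2 reads). Its share rose by 13.0 points at 45 min and fell by 21.2 points at 90 min. AT3G03773, a CS domain protein, left 98.9% (0, 0 and 16 reads). AT4G07950, with a TFIIS zinc ribbon, left 97.2% (56, 38 and 29 reads), and its share fell by 26 and 26.5 points. AT3G47370, a ribosomal protein S10p/S20e match, left 95.9% (0, 34 and 33 reads), and its share rose by 20.1 and 14.7 points. AT1G24210, with a paired amphipathic helix, left 95.7% (21, 6 and 21 reads).

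Second-window reads over the 3 libraries had a median of 111 in member windows and 92 in all windows, with a range of 11 to 165281. The table itself holds only transcripts with at least 100 reads and second windows with at least 10% of them. Reads were present in all 3 libraries for 584 members (65.3%, against 58.7% of all windows), in 2 for 212 and in 1 for 98 (11.0%, against 15.6%). White light had the most windows without a read, 180 (20.1%), followed by 124 at 90 min (13.9%) and 104 at 45 min (11.6%). The same order held over all windows (23.9%, 17.3% and 15.8%). There were 109 members (12.2%, against 13.5% of all windows) with reads in both far-red libraries and none in white light.

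Most member reads came from a few photosynthesis genes. RBCS3B and RBCS2B, which encode the small subunit of Rubisco, held 41976, 67079 and 56226 reads and 21279, 28092 and 22306 reads. They are near-identical neighbours, so the split of reads between them is uncertain. PSAF, a subunit of photosystem I, held 12066, 18500 and 17050. LHB1B2, a light-harvesting chlorophyll-binding protein, held 10749, 20414 and 14499. These 4 windows took 52.4% of all member reads, and 65 members held 1000 reads or more.

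The PPID entry of LHB1B2 is a match to a phosphoglycerate mutase model, which is not the domain the protein is known for, and its locus overlaps 2 annotated genes. Among the 4, changes of at least 10 points were found in RBCS2B, whose share rose by 12.5 points at 45 min and was 17.7 points lower at 90 than at 45 min, and in LHB1B2, 10.7 points higher at 90 than at 45 min. For LHB1B2 this became 9.45 points, under the minimum, against all other reads of the transcript.

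Next in reads came CCoAOMT1, a methyltransferase of lignin synthesis, with 3384, 6531 and 5756 reads, and AT5G42190, annotated as SKP1-like, with 2623, 4305 and 5533. SKP1 proteins join F-box proteins to the cullin of SCF ubiquitin ligases, and the 152 bases left in AT5G42190 kept the Skp1 dimerisation domain at 64. The 90 min share was 19 points above that of white light (Fisher's exact test, adjusted p = 4.5e-116), and the change of 1.43 points at 45 min did not pass. AT5G02760, annotated as a protein phosphatase 2C, held 1145, 3206 and 5011 reads. Its level at 90 min was 3.65-fold that of white light (3.42 to 3.90) and its share rose by 13.9 points. Its locus overlaps 2 other annotated genes. The share of ALP, an aleurain-like protease (1743, 3386 and 2969 reads), rose by 18.0 and 10.6 points. That of FBR12, a translation factor eIF5A (791, 1520 and 1553 reads), rose by 16.5 and 18.2 points.

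Taken over all members, changes in share were about as frequent as over the table. A window was called when its Fisher's exact test passed an adjusted p of 0.05 over all windows tested and its share differed by at least 10 points, with at least 20 first- plus second-window reads in both libraries. At 45 min against white light 516 of 778 members were called (66.3%, against 68.1% of all windows tested), 271 higher (34.8% against 34.6%) and 245 lower (31.5% against 33.5%). At 90 min against white light 535 of 773 were called (69.2% against 72%), 316 higher (40.9% against 40.3%) and 219 lower (28.3% against 31.7%). At 90 against 45 min 463 of 817 were called (56.7% against 59.8%), 276 higher (33.8% against 34.6%) and 187 lower (22.9% against 25.2%). These member shares lie near those of the whole table and are no result about the members.

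The median change in share was 0.957 points at 45 min, 4.26 at 90 min and 2.23 between the far-red libraries, against 0, 3.36 and 1.98 over all windows. The median size of the change was 17.4, 20.4 and 14.6 points, against 20.6, 23.7 and 16.4. Shares changed more where reads were few, in members as in all windows. At 45 min 75.4% of members with 20 to 50 reads in the shallower library were called and 51.0% of those with 300 or more, against 75% and 48.8% of all windows. Called at both far-red times in the same direction were 186 members higher (24.9% of 748, against 23.7% of all windows) and 150 lower (20.1% against 22.6%). Both comparisons use the same white light library. In the authors' deposited table, a false discovery rate under 0.05 was given for 69.0%, 71.4% and 64.3% of members in the 3 comparisons, and for 65.2%, 67.7% and 62.5% of all windows.

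**Figure D3:**
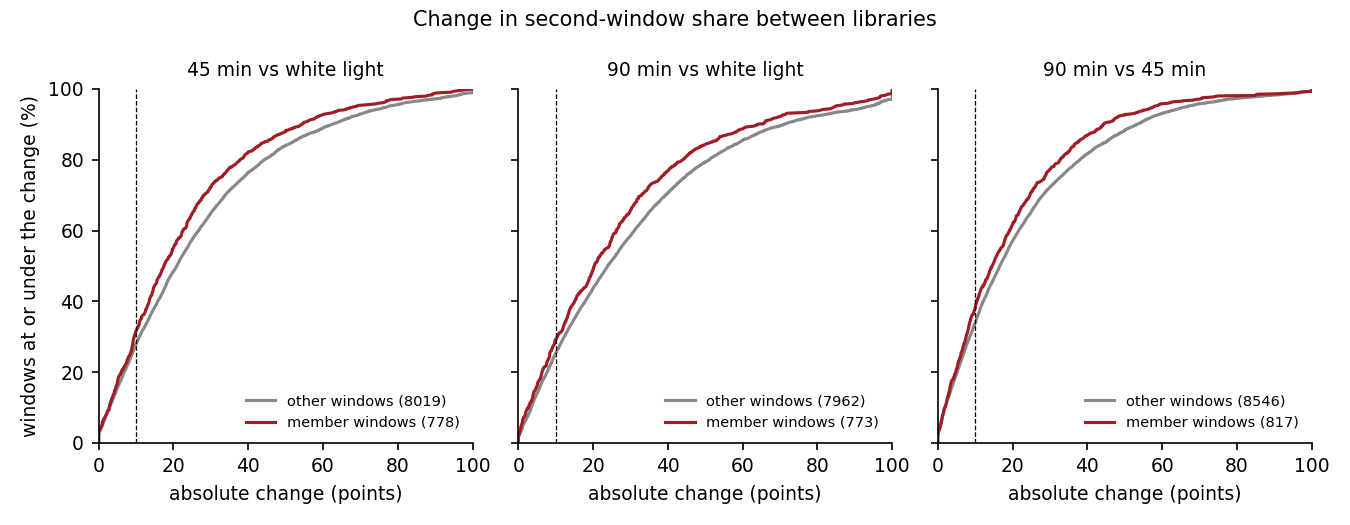
Cumulative percent of windows (vertical axis) at or under an absolute change in second-window share (horizontal axis, percentage points) for member windows and all other windows, 1 panel per pair of libraries. The dashed line is the 10-point minimum, and the median size of the member changes was 17.4, 20.4 and 14.6 points.

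The level of the second window, in RPM with a pseudocount of 1, could be given only as a fold with no test. At 45 min 499 of 870 members with at least 20 reads differed from white light by at least 2-fold (57.4%, against 58.6% of all windows), 276 higher (31.7% against 29.9%) and 223 lower (25.6% against 28.7%). At 90 min 529 did (60.8% against 61.3%), 314 higher (36.1% against 34.9%) and 215 lower (24.7% against 26.4%). Between 45 and 90 min 369 did (42.4% against 46.5%), 211 higher at 90 min (24.3% against 27.1%) and 158 lower (18.2% against 19.4%). Second and first window of a member passed 2-fold in the same direction in 12.8% of 866 cases at 45 min and in opposite directions in 12.7%, against 15.2% and 14.5% of all windows. At 90 min it was 15.9% and 15.6%, against 17.0% and 15.7%.

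Where 1 transcript had 2 member windows, as ATHB2 does, the windows lay a median of 77 coding bases apart (14 to 300, 43 transcripts). In 24 of these 43 transcripts both windows were higher, or both lower, in level at 45 min than in white light, and likewise in 24 at 90 min. Between 45 and 90 min 19 did so. The same count was not made over the whole table, and no agreement between windows of a transcript is read from these numbers. In a further 41 genes the windows belonged to different transcripts, and their reads were often nearly equal, so that 93 member windows of these genes are partly the same start counted again.

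**Figure D4:**
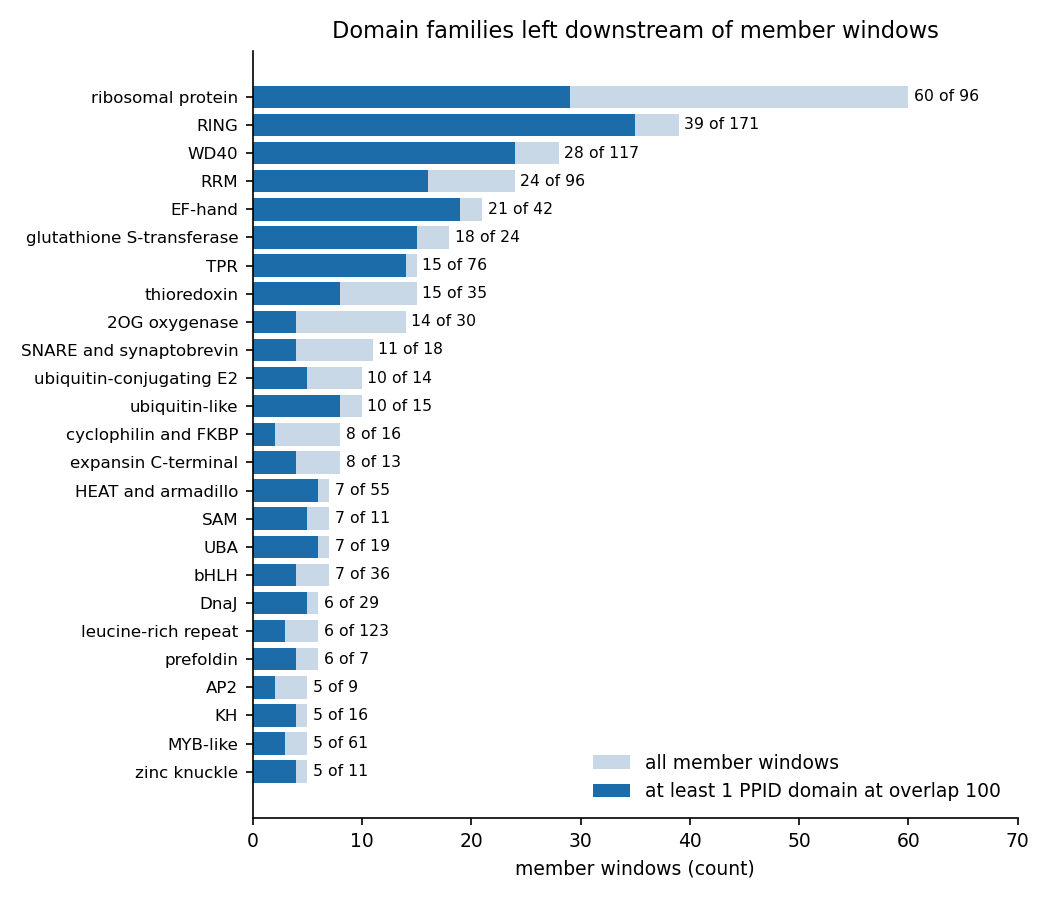
Member windows (count, horizontal axis) per domain family with at least 5 members. Pale bars show all member windows, dark bars those with at least 1 PPID domain at overlap 100, and the figures beside the bars give members out of all windows of the family with a PPID entry, from 60 of 96 ribosomal protein windows to 5 of 11 zinc knuckle windows. The PPID domain at 100 need not be the one that names the family.

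A domain family from a list of interaction, nucleic-acid-binding and related families was assigned to 389 members. The other 505 kept only PPID domains outside that list. Examples of such domains were the methyltransferase domain (10 member windows) and the elongation factor Tu GTP-binding domain (7). Others were the ACT domain (6) and the tyrosine kinase domain (6). The type PPID in this table thus covers many domains known first for catalysis. Counts of share changes by family are given below against white light, beside the percent of all windows tested that were called higher and lower. No family was tested as a set, and nothing particular to a family is read from these counts.

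Among DNA-binding regulators there were 34 member windows of 32 genes, out of 174 windows of these families with a PPID entry. Removing the N-terminal part of such a factor can leave a protein that dimerises or binds DNA without its other domains. At 45 min 8 of 26 tested rose in share and 9 fell (34.6% and 33.5% of all windows), and at 90 min 11 of 23 rose and 6 fell (40.3% and 31.7% of all windows). The ATHB2 windows had the most reads, followed by ILR3, a bHLH factor of iron homeostasis, with 123, 275 and 380 reads and 436 bases left. Its share rose by 16.8 and 12.8 points. Its helix-loop-helix domain stood at 68, beside other PPID matches at 100. The locus of ILR3 overlaps 2 other annotated genes.

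NF-Y factors bind CCAAT boxes as a complex of 3 kinds of subunit. Of their 4 windows with a PPID entry 3 were members, and all 3 rose at both times, as 23.7% of all windows did. These are 3 windows of 2 genes. NF-YA1 had windows with 369 bases left (27, 55 and 66 reads, a rise by 25.7 and 40.9 points) and 390 bases left (2, 45 and 37 reads, by 32.8 and 38.3 points). They share the same first window, whose reads were 184, 88 and 57. NF-YB13 left 380 bases (30, 48 and 77 reads), and its share rose by 17.4 and 18.4 points.

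GATA factors, several of which act in light and greening responses, had 4 members, each with the zinc finger at 100 in 286 to 331 bases. GATA2, known as a positive regulator of light responses, held 1, 91 and 102 reads, and its share rose by 19 and 15.8 points, with 152, 372 and 518 reads in the first window. GATA11 held 0, 12 and 100 reads and was not tested against white light, where its first window was also listed at 0. GATA6 held 59 reads in white light and none at either far-red time, at least 23.6-fold lower at 90 min against the floor, and its share fell by 84.3 points at both times. GATA3 held 30, 11 and 20 reads, and its share fell by 77.6 points at 45 min.

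Other regulators divided as well. The shares of bZIP3 (0, 9 and 22 reads) and GBF4 (10, 62 and 37), both bZIP factors, rose at both times. That of DEAR3, an AP2 factor of the DREB group with 91, 40 and 6 reads, fell by 40.0 and 55.6 points. Of the 7 bHLH windows, BS1, a small bHLH protein, held 55 reads in white light and none in either far-red library, and its share fell by 21.8 points at 45 min. In the 90 min library its first window held only 3 reads.

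**Figure D5:**
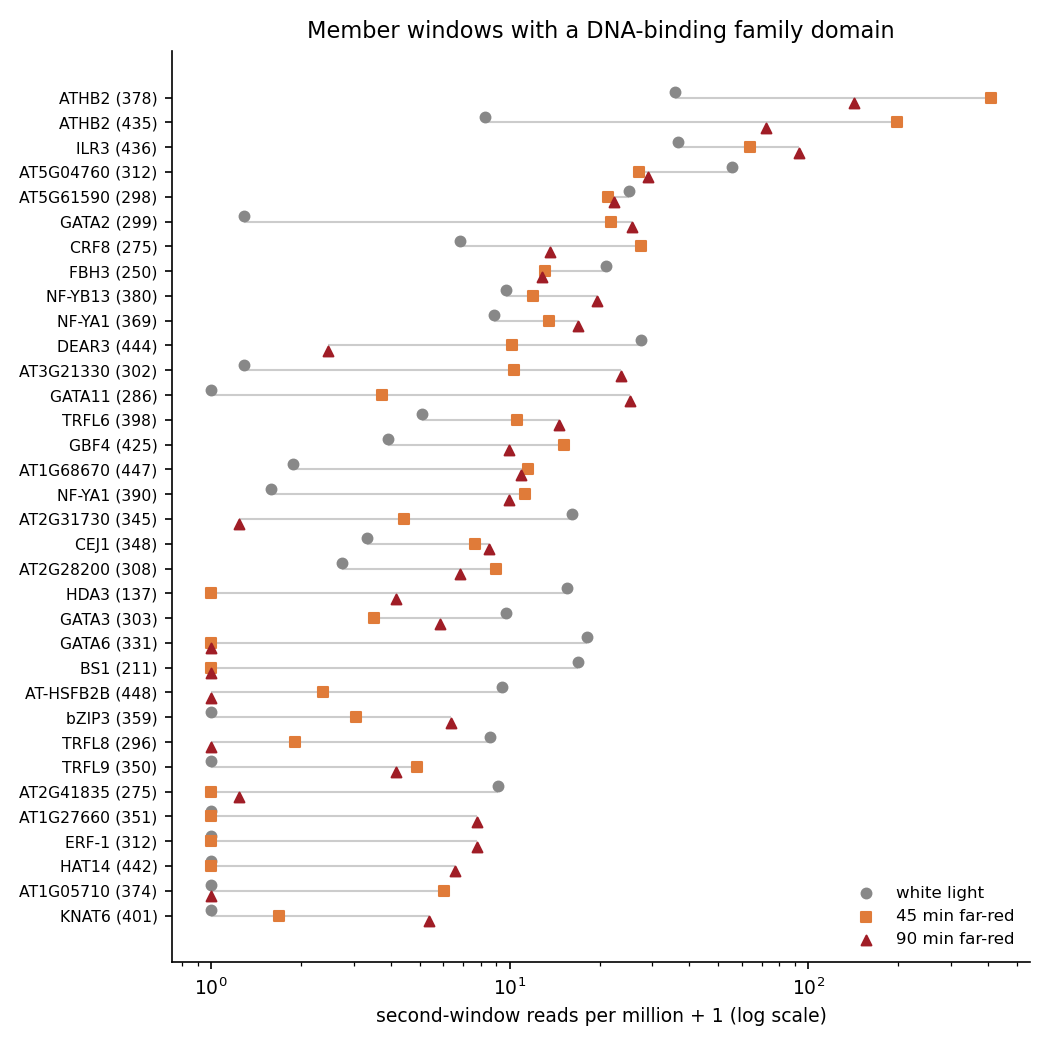
Second-window level in RPM plus 1 (log scale) for the 34 member windows with a DNA-binding family domain, in white light (circles), 45 min (squares) and 90 min (triangles) of far-red. Numbers in brackets are coding bases left, a value of 1 means no reads, and the ATHB2 windows have the highest levels of the set at 45 min, at 408 and 198 RPM.

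The ubiquitin system supplied 72 member windows of 63 genes. At 45 min 19 of 59 tested rose in share and 27 fell, beside 34.6% and 33.5% of all windows. At 90 min 23 of 59 rose and 20 fell, beside 40.3% and 31.7%. RING fingers, which bind the E2 enzyme in ubiquitin ligases, made up 39 of them, of 171 RING windows with a PPID entry, and 35 kept a PPID domain at 100. The RING member with most reads was AT4G24015 (74, 227 and 236 reads, 274 bases left), whose share rose by 36.1 and 22.5 points. Its locus overlaps 2 other annotated genes. AT1G55530, annotated as RING finger protein 126, went the other way, with 104, 131 and 51 reads against 1, 115 and 225 in its first window and a share lower by 45.8 and 80.6 points.

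E2 conjugating enzymes and their inactive variants had 10 members, of 14 windows with a PPID entry. MMZ1, a UEV-type E2 variant, held 351, 642 and 361 reads. Its share rose by 15.9 points at 45 min, and the difference of -5.23 points at 90 min did not pass. SCE1, the SUMO-conjugating E2, held 70, 35 and 18 reads, and its share fell by 46.2 points at both times. FUS9, also called COP10, an E2 variant that represses seedling photomorphogenesis in the dark, held 41, 0 and 0 reads, with 3, 11 and 47 in its first window. Its share fell by 93.2 points at 90 min, while the 45 min library held too few reads for the test.

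Ubiquitin genes encode ubiquitin as tandem repeats, and a start inside leaves fewer repeats. They gave most of the 10 ubiquitin-like members. UBQ10 had 4 nearly equal windows, of which that with 321 bases left held 668, 253 and 837 reads and a share that fell by 15.6 points at 45 min and rose by 13.4 points at 90 min. UBQ4 held 76, 25 and 0 reads, and its share fell by 25.3 and 45.5 points. The repeats and the genes are near-identical in sequence, so the placing of these reads is uncertain. Of the 7 windows with a UBA domain, which binds ubiquitin, 6 kept a PPID domain at 100. At 45 min 2 of them rose and 4 fell in share (34.6% and 33.5% of all windows). RAD23B, a shuttle that carries ubiquitinated proteins to the proteasome, kept its C-terminal UBA domain at 85 in 117 of 1116 bases. It held 51, 277 and 186 reads against 113, 35 and 20 in its first window, and its share rose by 57.7 and 59.2 points. UBP14, a deubiquitinating enzyme, held 44 reads in white light and none in the far-red libraries, with a fall by 48.4 points at both times. The UBX domain, which binds the segregase CDC48, was left in 4 windows. AT4G10790 with 228 bases left held 0, 2 and 183 reads, at least 50.9-fold higher at 90 min than in white light, whereas its other window, with 256 bases left, held 2, 53 and 95.

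Ribosomal proteins were the largest family, with 60 member windows of 49 genes out of 96 windows with a PPID entry. Their genes are short, and the median window left 71.5% of the coding sequence. At 45 min 23 of 59 rose in share and 12 fell (all windows: 34.6% and 33.5%), and at 90 min 27 of 57 rose and 10 fell (all windows: 40.3% and 31.7%). The median change was 7.67 and 8.53 points, against 0 and 3.36 over all windows. AT3G60770, annotated as small-subunit protein S13, had the most reads (741, 1971 and 1830, 323 bases left), and its share rose by 13.5 and 21.1 points. Its second member window, with 381 bases left, held 570, 1099 and 1188 reads. GHS1, a plastid ribosomal protein S21, held 361, 478 and 790 reads and rose by 11.9 points at 90 min. RPS15 held 466, 872 and 475 reads and was not called at either time. Many ribosomal proteins have close paralogs, between which the authors' read placing could have split reads.

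RNA-binding domains were left in 34 windows. The RNA recognition motif accounted for 24, of which 11 of 22 tested rose and 5 fell, both at 45 min (34.6% and 33.5% of all windows) and at 90 min (40.3% and 31.7%). NUC-L1, a nucleolin of ribosomal RNA maturation, kept 429 bases and held 106, 756 and 465 reads. Its share rose by 51.0 points at 45 min and, at 90 min, still stood 24.6 points above white light. AT5G59950 held 26, 155 and 281 reads and rose by 23.6 and 48.8 points. GRP7, a glycine-rich RNA-binding protein under clock control, held 349, 392 and 324 reads and was not called. All 5 zinc knuckle windows fell at both times, as 22.6% of all windows did, among them 2 of AT1G75560, which share a first window of 4, 100 and 20 reads. The shortest of all member windows, with 98 bases left, was one of this pair and held 35, 0 and 0 reads. Of the 5 KH domain windows, from 4 genes, 0 rose and 4 fell at 45 min (34.6% and 33.5% of all windows). At 90 min 1 rose and 3 fell (40.3% and 31.7% of all windows). AT2G25910 with 246 bases left held 108, 4 and 0 reads, at least 43.2-fold lower at 90 min than in white light.

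Among calcium sensors, 21 windows of 20 genes kept an EF-hand, the helix-loop-helix that binds calcium, and 19 of them a PPID domain at 100. At 45 min 6 of 19 rose in share and 7 fell, where 34.6% and 33.5% of all windows did. At 90 min 11 of 19 rose and 5 fell, where 40.3% and 31.7% of all windows did. CBL10, a calcineurin B-like sensor of salt signalling, held 446, 696 and 567 reads with 228 bases left. Its difference of 9.71 points at 45 min stayed under the 10-point minimum, and its share rose by 13.9 points at 90 min. CP1 held 101, 229 and 342 reads and rose by 18.5 points at 90 min. Windows of CPK33, a calcium-dependent kinase, and of AT5G54130 kept only EF-hands in 339 and 309 bases. They held 34, 5 and 0 and 23, 3 and 0 reads, against 0, 55 and 35 and 0, 58 and 57 in their first windows, so both shares went from 100% in white light to 0% at 90 min. The locus of CPK33 overlaps 2 other annotated genes.

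Redox proteins gave 37 windows. For glutathione S-transferases, which join glutathione to toxic compounds, 18 of 24 windows with a PPID entry were members, from 13 genes, mostly with the C-terminal domain. At 45 min 11 of 16 rose in share and 0 fell by the same rule, against 34.6% and 33.5% of all windows. At 90 min 7 of 16 rose and 3 fell, against 40.3% and 31.7%. GSTU8 held 58, 261 and 207 reads and rose by 43.6 and 41.9 points. GSTF7 held 139, 287 and 222 and rose by 22.1 and 11.0 points. GSTF10 had the most reads (434, 601 and 372), and its change of 9.16 points at 45 min was under the minimum. GSTF6 gave 3 of the windows and has a close paralog in GSTF7. Of the thioredoxin-fold windows 14 of 15 were tested at 45 min, and 3 rose and 3 fell (34.6% and 33.5% of all windows). At 90 min 5 of 14 rose and 4 fell (40.3% and 31.7%). TRX3, a cytosolic thioredoxin, led with 826, 1610 and 1205 reads and a rise by 10.9 points at 45 min.

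Chaperones and their partners gave 24 windows of 21 genes, out of 60 windows with a PPID entry. At 45 min 8 of 17 rose in share and 7 fell (34.6% and 33.5% over the whole table), and at 90 min 8 of 17 rose and 5 fell (40.3% and 31.7%). Cyclophilins and FKBPs, which turn the peptide bond before proline, made up 8 of them. ROC4, a chloroplast cyclophilin, led with 157, 453 and 686 reads in 360 bases, and its share rose by 16.8 and 33.8 points. AT3G66654, annotated as a prolyl isomerase, held 39, 120 and 149 reads and rose by 27.6 and 69.2 points. Its first window held 192, 150 and 24. The DnaJ windows divided. Both windows of AT5G01390, from 2 transcripts and partly the same start, rose at both times, whereas AT2G22360 with 60, 11 and 36 reads fell by 81.3 and 42.2 points.

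The 2-oxoglutarate oxygenases, a family that includes enzymes of gibberellin turnover, gave 14 windows of 13 genes, of which 4 kept a PPID domain at 100. At 45 min 0 of 12 rose in share and 4 fell, with 34.6% and 33.5% over all windows. At 90 min 5 of 13 rose and 6 fell, with 40.3% and 31.7% over all windows. GA2OX2, a gibberellin-inactivating enzyme, held 23 reads in white light and none in the far-red libraries, and its share fell by 27.1 points at both times. AT1G06640 with 83, 257 and 177 reads kept a PPID domain at 100 in 318 bases and rose by 14.0 points at 90 min. At 45 min its difference of 9.12 points was under the minimum.

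Repeat proteins were the group with the lowest share of members, 60 of 400 windows with a PPID entry. At 45 min 19 of 49 rose and 20 fell (34.6% and 33.5% of all windows), and at 90 min 19 rose and 19 fell (40.3% and 31.7%). WD40 repeats form a closed propeller, so the 28 member windows, with up to 41.8% of the coding sequence left, keep an incomplete one. LWD2, a WD40 protein of the circadian clock, held 177, 113 and 118 reads, and its differences of 2.87 and -3.61 points did not pass. ATARCA, a RACK1 scaffold protein, held 30, 100 and 144 reads and rose by 20.2 points at 90 min. LUH, a co-repressor related to LEUNIG, held 113, 63 and 82 reads and fell by 16.0 and 21.4 points. BSK3, a brassinosteroid-signalling kinase, kept its C-terminal TPR repeats in 319 bases. It held 107, 26 and 0 reads, at least 42.8-fold lower at 90 min than in white light.

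SNARE proteins zip together through their coiled-coil motif to fuse membranes, and 11 of 18 windows with a PPID entry left 202 to 385 bases with that motif near the C-terminal membrane anchor. Reads were present in all 3 libraries for 10 of them. At 45 min 2 of 11 rose and 1 fell (34.6% and 33.5% of all windows), and at 90 min 5 rose and 1 fell (40.3% and 31.7%). SYP71 held 307, 805 and 664 reads and rose by 16.6 and 15.7 points. VAMP724 held 201, 181 and 149 reads, and its differences of 5.35 and -2.70 points did not pass. In smaller groups, EXLA2, an expansin-like wall protein, held 7, 119 and 109 reads and rose by 76.5 and 44.1 points. AGG2, a gamma subunit of heterotrimeric G proteins, kept its GGL domain in 213 bases, held 41, 124 and 179 reads and rose by 32.6 points at 90 min.

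The largest changes in share called at both times are given with the reads of both windows. The loci of AT1G69520, AT4G28706, AT3G21215, ACAT2, AT2G47020 and AT5G02950 each overlap 1 other annotated gene. Those of AT5G19630 and ANNAT3 overlap none. AT1G69520, a methyltransferase match, held 0, 9 and 73 reads while its first window held 34, 27 and 0, a rise by 25 and 100 points. AT4G28706, a pfkB kinase match, held 0, 38 and 38 reads against 31, 20 and 0, a rise by 65.5 and 100 points. Its transcript held 112 reads in all at 90 min, most of them outside these 2 windows. AT3G21215, with an RNA recognition motif, held 1, 10 and 79 reads against 110, 10 and 0, and rose by 49.1 and 99.1 points. Against all other reads of the transcript, its difference at 45 min was 4.24 points and no longer passed the minimum. At 90 min its transcript held 264 reads, most of them in neither window.

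AT5G19630, an alpha/beta hydrolase match with 450 bases left, held 2, 24 and 44 reads against 65, 35 and 0 in its first window and rose by 37.7 and 97.0 points. ACAT2, an acetoacetyl-CoA thiolase, held 0, 51 and 42 against 61, 81 and 2 and rose by 38.6 and 95.5 points. Its transcript held 185 reads at 90 min, most of them in neither window. In the opposite direction AT2G47020, a peptide release factor match, held 47, 1 and 0 reads against 0, 80 and 193. AT5G02950, with an RNA recognition motif, held 35, 7 and 0 against 0, 58 and 88. ANNAT3, an annexin, held 56, 27 and 0 against 0, 40 and 29. These 3 fell by 98.8, 89.2 and 59.7 points at 45 min, and at 90 min each had fallen by the full 100 points.

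In level, AT3G43740, with leucine-rich repeats in 361 bases, held 0, 40 and 129 reads. It was at least 10.5-fold higher at 45 min and 35.9-fold higher at 90 min than in white light. ERH3, the katanin subunit that severs microtubules, kept its Vps4 oligomerisation domain in 204 bases. It held 111, 28 and 0 reads, at least 44.4-fold lower at 90 min than in white light, while its first window held 81, 115 and 131. Of the 797 genes with member windows 273 overlap another annotated gene (34.3%, against 32.3% of all genes in the table), and its part in the results was not tested. Without these genes, 340 of 514 member windows tested were called in share at 45 min, against 516 of 778 with them.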

How the data were processed

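PEAT reads had been processed by the authors. The submitters' processing notes name FastQC, cutadapt, HISAT2 2.0.5, SAMtools 0.1.19 and bedtools 2.17.0 and the builds TAIR9 and TAIR10, with no order or settings. The deposited table holds raw counts of reads per transcript, first window and second window, per the file headers, and its read thresholds are the authors'. The deposited adjusted p-values are Fisher p-values adjusted by Benjamini-Hochberg by the authors, per the file headers. All per-sample columns were used (0 left out). Depth was 3440656 to 4373900 reads.

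Members and lists were chosen with earlier results of these data known. Symbols and overlapping neighbours came from RefSeq (794 of 797 member genes found), whose coordinates and sequences were not used. Shares of second-window reads in first- plus second-window reads were compared per window with 2-sided Fisher's exact tests, adjusted by Benjamini-Hochberg over all windows tested (scipy 1.17.1, pandas 2.3.3, Python 3.11.15). The test was run on simulated data first. With 1 library per group, edgeR and DESeq2 could not be used. Levels (RPM) divide counts by the table total and multiply by 1000000, shown as log2 with a pseudocount of 1 RPM. A fold against a library without reads was set against 3 reads in that library.

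Named were all ATHB2, HD-ZIP and zipper members, the 10 with most reads, the 5 smallest and 5 largest shares left, the 5 largest rises and falls called at both times, the 3 largest rises and falls in level with at least 50 reads, and the top member of the 5 commonest families. Further family examples, such as FUS9 and the NF-Y and GATA windows, were chosen after their values were seen. Alternatives changed the length limit, read minimum, minimum change, test, reference reads, pseudocount and scaling. Those without overlapping genes, with 1 window per gene or without windows of several transcripts were chosen after seeing the data.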

Additional observations from a re-analysis of the deposited data

Results flagged for a closer look

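For 18 of the windows chosen by the naming rule the share differed between the far-red libraries themselves (Fisher's exact test, called by the same rule). Such calls were common, at 56.7% of members and 59.8% of all windows tested. Part of the naming rule also picks large changes at 90 min, so the number 18 is no result about these windows. HAT14 and AT4G10790 held too few reads in white light for a test against it. Windows described as further family examples are not counted among the 18, and some passed as well, such as GATA3 (72.8 points), GATA11 (58.3), DEAR3 (-15.6) and the 369-base window of NF-YA1 (15.2). Given as the share at 90 min minus that at 45 min, the difference was 75 points for AT1G69520, 70.8 for AT4G10790, 59.3 for AT5G19630, 56.8 for ACAT2, 54.8 for HAT14, 50 for AT3G21215, 35.7 for AT3G43740, 34.5 for AT4G28706, 17.6 for AT5G42190 and 10.7 for LHB1B2. It was -40.3 points for ANNAT3, -34.2 for AT5G55140, -26.4 for NUC-L1, -19.6 for ERH3, -17.7 for RBCS2B, -17.3 for BSK3, -13.6 for AT4G24015 and -10.8 for AT5G02950. HAT14, AT1G69520, AT4G28706, AT3G21215, AT5G19630, AT5G02950 and ANNAT3 held under 100 first- plus second-window reads in both far-red libraries. With all other reads of the transcript in place of the first window, the differences of LHB1B2, BSK3, AT5G02950 and ACAT2 were no longer called, at 9.45, -9.35, -8.54 and 5.36 points. Those of AT4G24015 and AT4G28706 also lost the call and changed sign, at 1.87 and -3.33 points.

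Reads of the member genes that lay in neither window made up 7.88% of those genes' reads in white light, with a 95% Wilson interval of 7.81 to 7.94. The 45 min library gave 8.69% (8.63 to 8.75) and the 90 min library 7.98% (7.92 to 8.04). They are start reads outside the windows described, and both far-red shares were above that of white light, although the intervals of white light and 90 min overlap. Over all genes of the table the shares were 15.2%, 17.4% and 16.7%. These percentages pool reads, so genes with many reads weigh most. In white light RBCS3B, RBCS2B, PSAF and LHB1B2 held 154601, 77688, 43259 and 47183 reads, beside 625362 over all member genes. Of their reads, 150432, 76388, 40399 and 43464 lay in the first and second window. The pooled values therefore say little about a typical member gene.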

How the results depend on the processing

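Of the counts recomputed under another setting, 44 stayed within 1.5 times and 10 did not. With entries counted anew under a limit of 300 bases, 304 windows were members. Among the 290 member windows with 300 bases or less left, 168 of 254 tested were called in share at 45 min against white light. At 90 min 166 of 252 were called, and at 90 against 45 min 148 of 262. In level, 158, 168 and 117 of 283 passed 2-fold, in the same order. These counts are lower since fewer windows qualify. With 600 bases or less left, 1483 windows were members. Without genes that overlap another gene, 340 were called at 45 min, as fewer windows were tested. With a pseudocount of 5 RPM, 233 passed 2-fold between 45 and 90 min, 142 higher and 91 lower, because it shrinks the folds of low windows. For the named windows, 632 of 689 changes in share kept direction and side of the threshold, 28 lost the call and 22 gained it. Raising the minimum change to 20 points gave 21 of the losses, and dropping the minimum gave 21 of the gains. All other reads of the transcript as the reference gave 7 losses and 1 gain. The chi-square test and other read minimums moved no call among windows still tested. Another 7 changed sign, all with all other reads of the transcript in place of the first window: MET18 (1.06 points at 45 min against white light, -2.32 at 90 against 45 min), the 435-base window of ATHB2 (3.05 at 90 min against white light), and at 90 against 45 min RKP (2.04), AT4G24015 (1.87), AT4G28706 (-3.33) and CBL10 (-0.554). Of these AT4G24015, AT4G28706 and, at 45 min, MET18 had been called, and the cause was not tested. Scaling by size factors moved levels by at most 0.0110 on the log2 scale. No paired analysis was possible because 1 library stood for each light condition, and for the same reason no replicate could be left out. Few reads limit many windows: members held a median of 111 second-window reads over the 3 libraries, against 92 over all windows.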
